A study of Rattus norvegicus with 6 samples.

Results

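The genes described are 38 genes of the cell cycle and of DNA replication, followed in cultured rat retinal ganglion cells (RGCs), the output neurons of the retina. Each gene was read from 1 probe set of the array, the one that carries that gene symbol alone and has the highest mean over all 6 arrays. By this rule 36 of the 38 genes were measured, out of 14217 genes and 31042 probe sets in all, and Rrm2 and Tpx2 had no such probe set. The cells were RGC neurons taken at postnatal day 6 and kept for 12 days in culture. They were treated for 12 hours with Gpc4, the heparan sulphate proteoglycan glypican 4 that astrocytes secrete (2 arrays), treated for 12 hours with TSP1, the astrocyte-secreted protein thrombospondin 1 (2 arrays), or left untreated and called Alone (2 arrays). All groups carried the same purification and culture: pups of both sexes, immunopanning, a medium with BDNF, CNTF, forskolin and insulin, and FUDR, a blocker of DNA synthesis that was added to hold back fibroblasts. Each array held RNA pooled from 2 wells. Each condition was repeated on 2 separate RGC cultures. The labels number the arrays of a group as replicates 1 and 2 without saying which culture each came from.

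RGCs are postmitotic: they leave the cell cycle for good before birth or soon after, so a purified culture is expected to hold few dividing cells of its own. The cycle runs from G1, where D cyclins act with Cdk4 and E cyclins with Cdk2, through S phase, where the MCM helicase opens DNA and Pcna clamps the polymerase to it, to mitosis, which Cdk1 with cyclins A and B starts and the anaphase-promoting complex ends. Many genes of late S phase and mitosis are transcribed only in dividing cells, whereas D cyclins, Cdk4 and Pcna also have roles or basal expression in cells that do not divide. FUDR is converted to a nucleotide that inhibits thymidylate synthase, the product of Tyms, and starves replicating cells of thymidylate. On these bulk arrays fewer cells of a type and less RNA per cell cannot be told apart.

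Transcription of these genes is timed in mammals by short promoter elements. E2F sites serve the G1 and S phase genes. CHR elements, the letters TTTGAA, and CCAAT boxes serve the mitotic genes. The 4 genes below were picked, after the values had been seen, from the members whose TSP1 and Alone arrays did not overlap. Cdk1, Ccnb2 and Mcm7 were lower, and Slbp higher, on both TSP1 arrays than on both Alone arrays. Ccnb1, Mcm6, Top2a, Nusap1 and Pcna also separated and have a promoter entry, but theirs are not printed. Each printed promoter is the 250 bases before the annotated start in RefSeq (GRCr8), written 5′ to 3′ along the gene's own strand. Capitals mark every CHR, CCAAT and E2F match on either strand. The motifs were chosen after the values of the genes had been seen. Cdk1 lies on the plus strand at chr20:19265043-19265292, Ccnb2 on the minus strand at chr8:79981659-79981908, Mcm7 on the minus strand at chr12:22163179-22163428 and Slbp on the plus strand at chr14:81295998-81296247.
Cdk1: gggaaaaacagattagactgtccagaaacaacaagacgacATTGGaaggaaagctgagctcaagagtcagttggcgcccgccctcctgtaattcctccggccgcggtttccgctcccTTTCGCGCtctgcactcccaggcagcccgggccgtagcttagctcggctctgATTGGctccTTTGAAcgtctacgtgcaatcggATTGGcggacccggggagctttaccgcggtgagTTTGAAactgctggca
Ccnb2: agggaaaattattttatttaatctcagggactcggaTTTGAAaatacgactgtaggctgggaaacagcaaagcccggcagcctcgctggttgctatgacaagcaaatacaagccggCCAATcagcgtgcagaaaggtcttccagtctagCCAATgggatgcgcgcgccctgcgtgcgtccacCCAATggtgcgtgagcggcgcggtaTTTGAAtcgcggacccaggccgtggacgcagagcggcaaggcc
Mcm7: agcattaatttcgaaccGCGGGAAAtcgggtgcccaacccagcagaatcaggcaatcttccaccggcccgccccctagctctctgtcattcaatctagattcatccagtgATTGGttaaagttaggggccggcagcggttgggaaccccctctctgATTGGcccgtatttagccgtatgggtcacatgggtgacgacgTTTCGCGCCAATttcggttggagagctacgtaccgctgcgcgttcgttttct
Slbp: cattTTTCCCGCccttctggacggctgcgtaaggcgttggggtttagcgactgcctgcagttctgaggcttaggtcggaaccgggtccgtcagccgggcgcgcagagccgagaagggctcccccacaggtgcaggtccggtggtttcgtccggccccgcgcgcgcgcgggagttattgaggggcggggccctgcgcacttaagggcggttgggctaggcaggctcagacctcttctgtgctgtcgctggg
The Cdk1 window held 2 CHR matches, 3 CCAAT boxes and 1 E2F match, and the Ccnb2 window 2 CHR matches and 3 CCAAT boxes with no E2F match. Mcm7 had 3 CCAAT boxes and 2 E2F matches, 1 of which overlaps a CCAAT box, and no CHR match. Slbp had 1 E2F match and none of the others. The E2F consensus was searched as the words TTTCCCGC, TTTCGCGC, TTTGCCGC and TTTGGCGC. A RefSeq promoter was matched by symbol for 29 of the 38 genes. A CHR match stood in 8 of these 29 (27.6%), against 16.2% of all 33469 promoters in the table, a CCAAT box in 21 (72.4%), against 34%, and an E2F match in 7 (24.1%), against 1.73%. These matches describe letters in the window and are no evidence of binding.

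The arrays had nearly the same centre, with medians between 5.96 and 5.99 on the log2 scale of RMA, the method that corrects background, normalizes the arrays to each other and sums up the probes of a probe set. Of the 8 measured RGC markers, all lay above the array median on all 6 arrays and none passed the test in any comparison. Markers of other cells were also measured. Of 12 fibroblast and meningeal markers 11 lay above the array median on at least 1 array, and of 8 microglial markers 4 did. Below it on all 6 arrays lay 6 of 9 astrocyte and Muller glia markers and 2 of 7 markers of other retinal neurons and progenitors. So did 5 of 6 endothelial and pericyte markers and 4 of 5 markers of the oligodendrocyte lineage. The deposited table holds no detection calls, so a probe set under its array's median is not shown to be above background, and differences there can understate a change in mRNA. For a test, a difference counted as past the threshold where its Benjamini-Hochberg adjusted p over all 31042 probe sets was under 0.05 in limma. The 2 treatments share the Alone arrays, so their differences from Alone are not independent of each other. With 2 arrays a group, p-values measure the spread between these arrays.

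Of the 36 measured genes, 15 lay above the array median on all 6 arrays, 18 below it on all 6, and Cdk1, Ccnb2 and Slbp on both sides. The 15 were mostly G1 and replication genes: Cdk4, the D cyclins Ccnd1, Ccnd2 and Ccnd3, Ccne1, Pcna, Mcm2, Mcm4, Mcm6, Mcm7, Rrm1 and Tk1, joined by Ccnb1, Plk1 and Cdkn3. By role, 5 of 7 G1 genes and 5 of 7 replication genes lay above the median throughout, against 1 of 13 genes of chromosomes, spindle and mitotic exit. The other 12 of those 13 lay below it on all 6 arrays: Top2a, the topoisomerase of chromosome condensation, Mki67, the antigen Ki-67 used to stain dividing cells, Birc5, Aurka, Aurkb, Bub1b, Cdc20, Kif11, Kif20a, Nusap1, Cenpf and Ube2c. Mki67 read 4.05 and 3.81 with Gpc4, 3.72 and 3.85 with TSP1, and 3.81 and 4.10 in Alone, and Top2a 4.39 and 4.22 with Gpc4, 4.15 and 4.05 with TSP1, and 4.17 and 4.22 in Alone. These defining markers of division were thus not shown above background in any condition, including the untreated one.

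**Figure D1:**
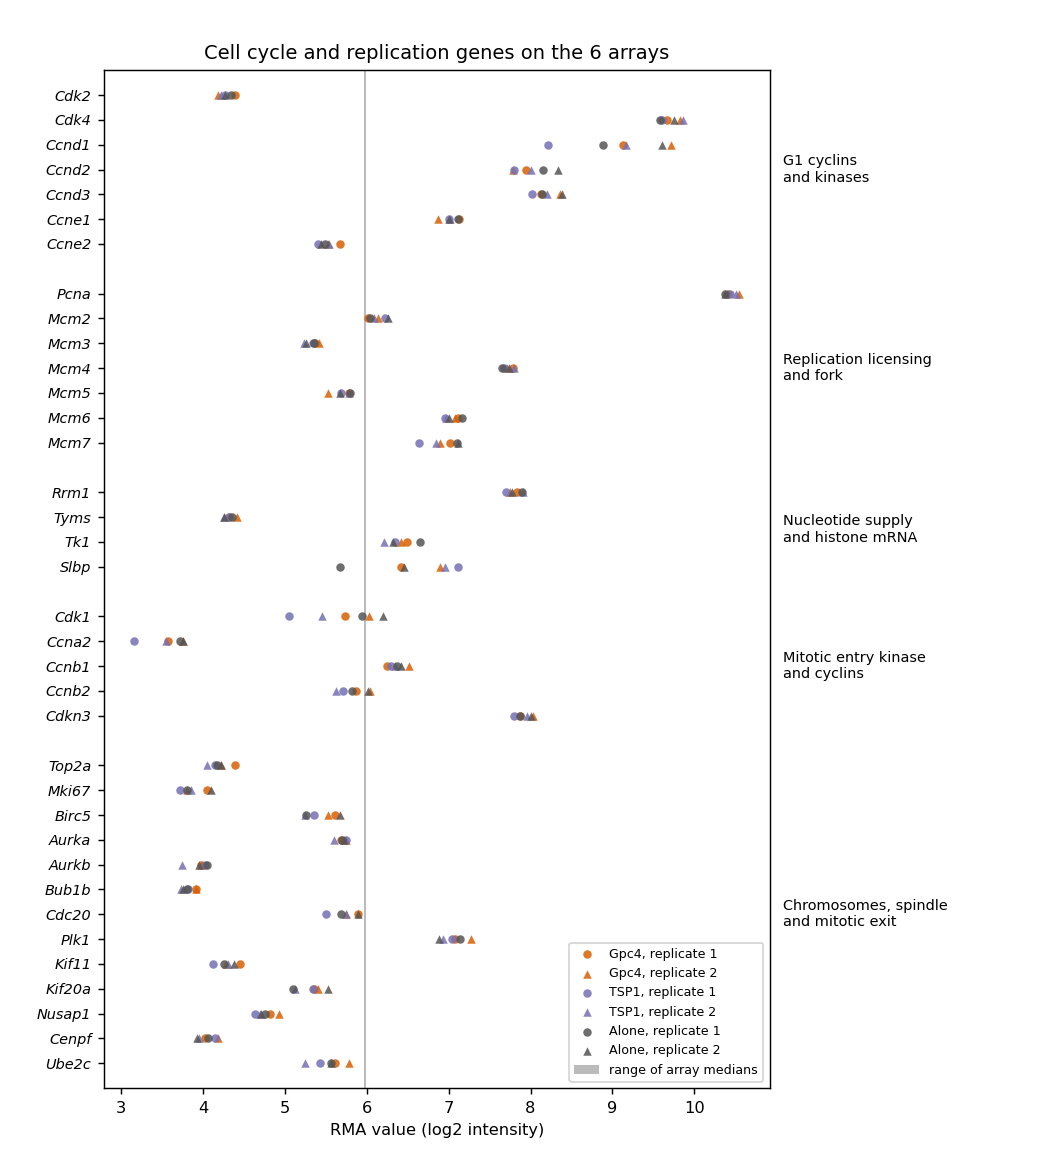
RMA values (log2 intensity, x axis) of the 36 measured genes, grouped by role, on each of the 6 arrays, with colour for the group and shape for the replicate number. The vertical band is the range of the array medians, 5.96 to 5.99, and 12 of the 13 genes of chromosomes, spindle and mitotic exit lie to its left on every array.

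With either treatment no member passed the test. For Gpc4 against Alone, 0 of 36 were called, where 0.0838% of all probe sets were, and the smallest adjusted p of a member was 0.61. For TSP1 against Alone, 0 of 36 were called, where 0% of all probe sets were, and the smallest adjusted p was 0.98. For Gpc4 against TSP1, 0 of 36 were called, where 0.0612% of all probe sets were, and the smallest adjusted p was 0.76. At an unadjusted p under 0.05 in limma there were 2 members for Gpc4 against Alone (6.88% of all probe sets), 5 for TSP1 against Alone (4.4%) and 4 for Gpc4 against TSP1 (4.51%). The paper names a t-test for pairs in its general statistics, while for the arrays it names only the Affymetrix software. Applied here without adjustment, a t-test passed Bub1b for Gpc4 against Alone and Mcm6 for Gpc4 against TSP1. The difference was 0.14 on the log2 scale in each case. It passed no member for TSP1 against Alone. With the replicate number fitted as a block, 0 members were called for Gpc4 against Alone (0.206% of all probe sets), 0 for TSP1 against Alone (0.0129%) and 1, Cdk1, for Gpc4 against TSP1 (0.258%). The 95% interval of a member's difference, not adjusted for the number of probe sets, reached 0.25 to either side in the median. Changes smaller than that were thus not resolved for most members. Larger ones could also go uncalled after adjustment. With TSP1 against Alone, Cdk1 at −0.82 and Slbp at 0.97 each had an adjusted p of 0.98 in limma. The absence of calls therefore does not exclude changes above 0.25.

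Among the genes that drive entry into mitosis, Cdk1 had the largest difference with TSP1, and none passed the test against Alone. Cdk1, the kinase that starts mitosis, read 5.73 and 6.03 with Gpc4, 5.05 and 5.45 with TSP1, and 5.94 and 6.20 in Alone. Both TSP1 arrays were thus below all 4 other arrays, while Gpc4 and Alone overlapped. The log2 difference was −0.82 ± 0.17 (SE) for TSP1 against Alone, 0.57 times the untreated level, with −0.89 in replicate 1 and −0.75 in replicate 2 (adjusted p = 0.98; with the block 0.084). For Gpc4 against TSP1 it was 0.63 ± 0.17 (SE), 1.55-fold, with an interval from 0.24 to 1.02 (adjusted p = 0.76; with the block 0.047). The call with the block was lost when the arrays were centred on their medians (adjusted p = 0.054) and under quantile normalization (0.058). With the block, the difference itself stayed between 0.57 and 0.69 in those fits and without any 1 of the 6 arrays. Without the block it ran from 0.43 to 0.83 when any 1 array was left out. Fits without 1 array leave 1 array in a group and cannot decide a call. For Gpc4 against Alone the difference was −0.19 ± 0.17 (SE, adjusted p = 0.87). Its promoter, printed above, was the only one of the 4 with all 3 motifs.

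The cyclins that pair with Cdk1 had smaller differences. Ccna2, cyclin A2, read 3.57 and 3.75 with Gpc4, 3.16 and 3.55 with TSP1, and 3.72 and 3.75 in Alone, all far below the array median. The TSP1 arrays were again the lowest 2, at a difference of −0.38 ± 0.14 from Alone (SE, adjusted p = 0.98). Ccnb2, cyclin B2, read 5.87 and 6.04 with Gpc4, 5.71 and 5.63 with TSP1, and 5.82 and 6.02 in Alone, a difference of −0.25 ± 0.11 for TSP1 against Alone (SE, adjusted p = 0.98) and of 0.29 ± 0.11 for Gpc4 against TSP1 (SE, adjusted p = 1). Ccnb1, cyclin B1, lay above the median at 6.25 and 6.51 with Gpc4, 6.30 and 6.34 with TSP1, and 6.37 and 6.42 in Alone. Its TSP1 arrays lay below the Alone arrays, but by only −0.08 ± 0.11 (SE, adjusted p = 0.99). Cdkn3, a phosphatase that acts on cyclin-dependent kinases, differed by no more than 0.07 in size in any of the 3 comparisons. In this role 4 of 5 genes were lower on both TSP1 arrays than on both Alone arrays, as 15.6% of all probe sets were. All 5 differences were negative, and none passed the test. With Gpc4 no gene of this role was separated from Alone in either direction (16% of all probe sets were higher and 18.9% lower).

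**Figure D2:**
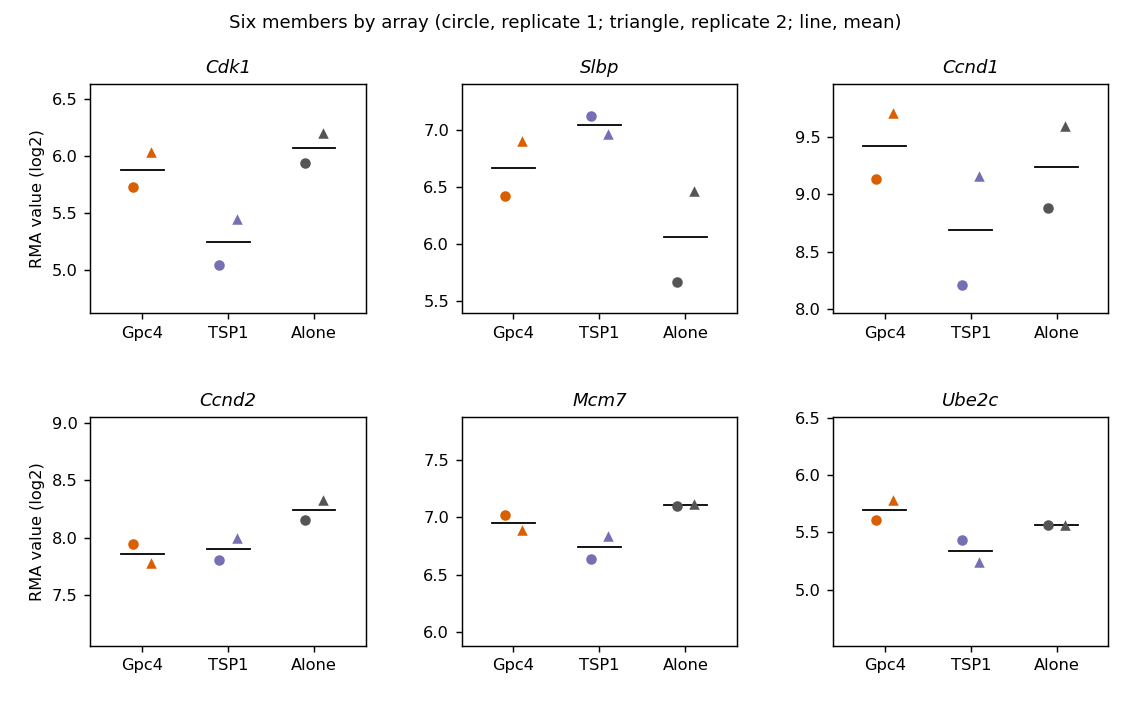
RMA values (log2, y axis) of Cdk1, Slbp, Ccnd1, Ccnd2, Mcm7 and Ube2c on the arrays of Gpc4, TSP1 and Alone, with circles for replicate 1, triangles for replicate 2 and a line for the mean. Every panel spans the same 2 log2 units. For Cdk1 both TSP1 arrays, 5.05 and 5.45, lie below the other 4.

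Slbp had the largest positive difference of any member. It encodes the stem-loop binding protein, which holds the 3′ end of replication-dependent histone mRNAs. It read 6.42 and 6.90 with Gpc4, 7.12 and 6.96 with TSP1, and 5.67 and 6.46 in Alone. Both TSP1 arrays were above both Alone arrays, and the Gpc4 arrays overlapped the Alone arrays. The log2 difference was 0.60 ± 0.25 for Gpc4 against Alone (SE, adjusted p = 0.72) and 0.97 ± 0.25 for TSP1 against Alone (SE, adjusted p = 0.98), a 1.97-fold difference. The Alone arrays themselves lay 0.79 apart, the widest gap between replicates of any member in Alone, and the TSP1 difference was 1.45 in replicate 1 and 0.50 in replicate 2. The gene has 2 further probe sets, both below the array median on all 6 arrays, whose TSP1 differences were 0.14 and −0.02. These 2 had mean percentiles of 4.8 and 2.6 on the arrays, too dim to check the difference seen on the chosen probe set.

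The remaining genes of nucleotide supply differed little. Tyms, the enzyme that FUDR blocks, read 4.32 and 4.42 with Gpc4, 4.32 and 4.25 with TSP1, and 4.35 and 4.26 in Alone, below the array median throughout. Rrm1, the large subunit of ribonucleotide reductase, read between 7.70 and 7.91 on all 6 arrays, with differences of −0.04 for Gpc4 and −0.03 for TSP1 against Alone. Tk1, which salvages thymidine, read 6.49 and 6.42 with Gpc4, 6.35 and 6.21 with TSP1, and 6.65 and 6.32 in Alone. Its largest difference, −0.21 for TSP1 against Alone, was less than the 0.33 between the Alone arrays.

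Among the G1 genes Ccnd2 and Ccnd1 differed most. Ccnd2, cyclin D2, read 7.94 and 7.78 with Gpc4, 7.80 and 8.0 with TSP1, and 8.15 and 8.33 in Alone. All 4 treated arrays were below both Alone arrays. The log2 difference was −0.38 ± 0.12 for Gpc4 (SE, adjusted p = 0.61) and −0.34 ± 0.12 for TSP1 (SE, adjusted p = 0.98), which share the Alone arrays, and −0.04 with an interval from −0.31 to 0.23 for Gpc4 against TSP1. Ccnd1, cyclin D1, read 9.13 and 9.71 with Gpc4, 8.21 and 9.16 with TSP1, and 8.88 and 9.60 in Alone. It was lower with TSP1 in each replicate, by −0.67 and −0.44, but its groups overlapped, since replicate 2 exceeded replicate 1 by 0.58 with Gpc4, 0.95 with TSP1 and 0.72 in Alone. For Gpc4 against TSP1 the difference was 0.74 ± 0.35 (SE, adjusted p = 1; with the block 0.057).

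Ccnd1 has 2 further probe sets. One of them gave 0.69 for Gpc4 against TSP1, with an adjusted p of 0.033 under the block, and the other 0.61, with 0.27 under the block. Against Alone the 3 probe sets differed more: the first of these 2 gave 0.57 with Gpc4 and −0.12 with TSP1, and the second 0.09 with Gpc4 and −0.52 with TSP1, against 0.18 and −0.56 on the chosen one. The size of the TSP1 difference of Ccnd1 thus depended on the probe set, while its direction and the difference between Gpc4 and TSP1 did not. On their chosen probe sets the other 5 G1 genes, Cdk2, Cdk4, Ccnd3, Ccne1 and Ccne2, differed by 0.15 or less in size in each comparison. Cdk4, the kinase partner of D cyclins, read 9.67 and 9.82 with Gpc4, 9.61 and 9.86 with TSP1, and 9.58 and 9.75 in Alone, and Ccnd3, cyclin D3, 8.13 and 8.36 with Gpc4, 8.02 and 8.20 with TSP1, and 8.14 and 8.38 in Alone. In both the replicate number separated the arrays and the treatment did not. Cdk2, the partner of E cyclins, lay between 4.18 and 4.39 on all 6 arrays, below the array median. Ccne2, cyclin E2, was the only G1 gene higher on both Gpc4 arrays, 5.67 and 5.53, than on both Alone arrays, 5.49 and 5.44. Its further probe set went the opposite way, at 4.75 and 4.76 with Gpc4, 4.79 and 5.17 with TSP1, and 5.20 and 5.03 in Alone, with differences of −0.36 for Gpc4 against Alone (adjusted p = 0.70) and −0.23 for Gpc4 against TSP1. Both Ccne2 probe sets lay below the array median on all 6 arrays.

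Most replication genes were level across the groups. Pcna, the sliding clamp of DNA polymerases, read 10.41 and 10.55 with Gpc4, 10.44 and 10.51 with TSP1, and 10.37 on both Alone arrays. All 4 treated arrays were above Alone, by 0.11 ± 0.09 for Gpc4 and 0.11 ± 0.09 for TSP1 (SE, adjusted p = 0.86 and 0.98). Mcm2, a subunit of the MCM helicase, read 6.02 and 6.14 with Gpc4, 6.22 and 6.09 with TSP1, and 6.04 and 6.26 in Alone, with no separation of the groups.

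Mcm7, another helicase subunit, was the replication gene that differed most. It read 7.02 and 6.89 with Gpc4, 6.64 and 6.84 with TSP1, and 7.10 and 7.12 in Alone. The 3 groups did not overlap, with TSP1 lowest and Alone highest. Its log2 difference was −0.16 ± 0.10 for Gpc4 against Alone (SE, adjusted p = 0.82) and −0.37 ± 0.10 for TSP1 against Alone (SE, adjusted p = 0.98). The subunits Mcm3, Mcm4, Mcm5 and Mcm6 differed from Alone by 0.12 or less in size with either treatment, although Mcm6 was lower on both TSP1 arrays, 6.96 and 6.97, than on both Alone arrays, 7.16 and 7.01.

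**Figure D3:**
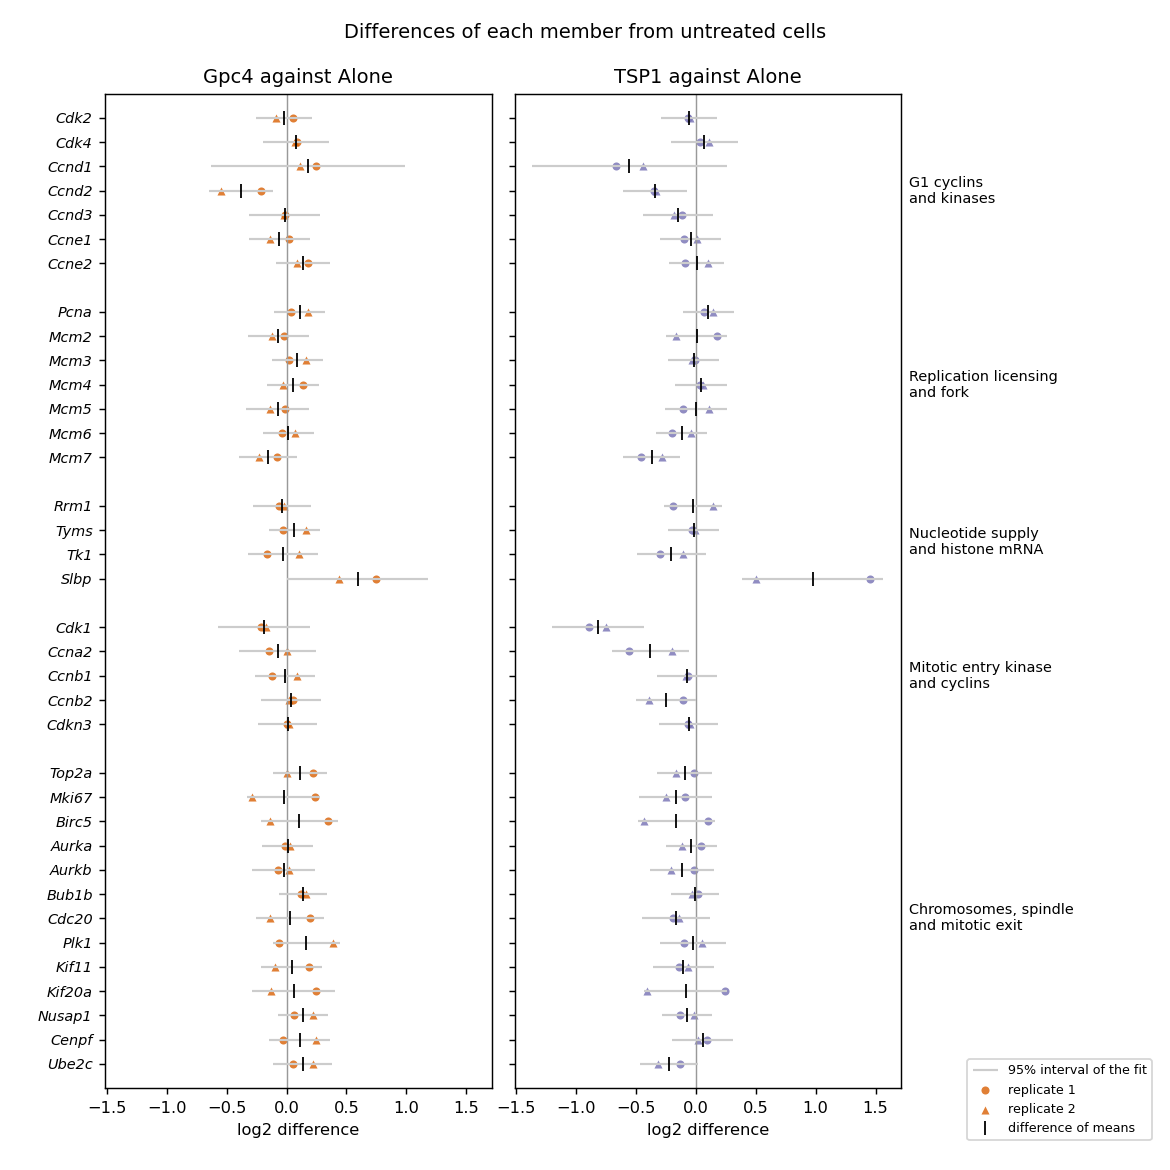
Log2 difference (x axis) of each measured gene for Gpc4 against Alone (left) and TSP1 against Alone (right), with circles and triangles for replicates 1 and 2, a black tick for the difference of means and a grey line for its 95% interval from limma. The differences from Alone run from −0.38 to 0.60 with Gpc4 and from −0.82 to 0.97 with TSP1.

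Counted over the members, the median differences from Alone were small. With Gpc4 the median log2 difference was 0.03 (0.02 in each replicate), but −0.0025 among members with a mean log2 value of at least 6 and also without Alone replicate 1. In the fit on all arrays 22 were positive and 14 negative, and 34 of 36 were under 0.25 in size (94.4%, against 91.5% of all probe sets). With TSP1 the median was −0.08 (−0.09 and −0.08 in the replicates), 7 were positive and 28 negative, and 29 of 36 were under 0.25 in size (80.6%, against 93.6% of all probe sets). The median over all probe sets was −0.01 in each comparison. Both Gpc4 arrays were higher than both Alone arrays for 6 members (16.7%, against 16% of all probe sets) and lower for 2 (5.56%, against 18.9%). Both TSP1 arrays were higher than both Alone arrays for 2 members, Pcna and Slbp (5.56%, against 14.3%), and lower for 10 (27.8%, against 15.6%): Cdk1, Ccna2, Ccnb1, Ccnb2, Ccnd2, Mcm6, Mcm7, Top2a, Nusap1 and Ube2c. Of the 16 further probe sets of members, 10 differed in sign from the chosen one for Gpc4 against Alone (in Ccnb1, Ccne2, Tk1, Top2a, Cdc20, Kif11 and Nusap1) and 3 for TSP1 against Alone (in Ccne2, Cdc20 and Slbp). The share of members that Gpc4 separated upward was thus close to that of all probe sets. The share that TSP1 separated downward was above that of all probe sets, and none of these members passed the test.

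Set against each other, Gpc4 read above TSP1 for most members. The median difference, Gpc4 minus TSP1, was 0.13 (0.12 and 0.16 in the replicates), against −0.01 for all probe sets, and 30 of 36 were positive. Both Gpc4 arrays were above both TSP1 arrays for 14 members (38.9%, against 14.6% of all probe sets) and below them for 1, Slbp (2.78%, against 15.5%). All 13 genes of chromosomes, spindle and mitotic exit were on the positive side, at 0.05 to 0.36, and 7 of them separated: Top2a, Birc5, Bub1b, Plk1, Kif20a, Nusap1 and Ube2c. The mitotic entry genes added Cdk1, Ccna2 and Ccnb2, the replication genes Mcm3, Mcm6 and Mcm7, and nucleotide supply Tk1, while no G1 gene separated on these unpaired terms. Ccnd1, a G1 gene, had the largest difference of all members, 0.74, positive in each replicate (0.92 and 0.55), with groups that overlapped. Of the 16 further probe sets of members, 6 had a difference of Gpc4 against TSP1 opposite in sign to that of the chosen one, in Cdk2, Ccne2, Cdc20 (3 of its 4) and Slbp (1 of its 2).

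Ube2c, the ubiquitin-conjugating enzyme of the anaphase-promoting complex, had the largest difference of the 13. It read 5.61 and 5.78 with Gpc4, 5.43 and 5.24 with TSP1, and 5.56 on both Alone arrays, so that Gpc4 was above and TSP1 below Alone. Gpc4 exceeded TSP1 by 0.36 ± 0.11 (SE, adjusted p = 0.87), 1.28-fold, 0.18 in replicate 1 and 0.54 in replicate 2. Nusap1, a protein of spindle microtubules, showed the same order at 4.82 and 4.93 with Gpc4, 4.63 and 4.69 with TSP1, and 4.76 and 4.71 in Alone. Its further probe set, also below the array median, did not: it read 4.23 and 4.27 with Gpc4, 4.32 and 4.13 with TSP1, and 4.34 and 4.31 in Alone, with a difference of 0.03 for Gpc4 against TSP1. Birc5, which encodes survivin, a subunit of the complex that holds Aurkb at centromeres, read 5.61 and 5.53 with Gpc4 and 5.36 and 5.24 with TSP1, but its Alone arrays, 5.26 and 5.67, spanned almost that whole range. Plk1, the polo-like kinase and the only 1 of the 13 above the array median, read 7.08 and 7.27 with Gpc4, 7.04 and 6.93 with TSP1, and 7.14 and 6.88 in Alone.

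Of the other members of this role, Bub1b, a kinase-like protein of the spindle checkpoint, read 3.92 on both Gpc4 arrays, 3.82 and 3.73 with TSP1, and 3.80 and 3.76 in Alone. Kif20a, a kinesin of cytokinesis, read 5.35 and 5.40 with Gpc4, 5.34 and 5.12 with TSP1, and 5.10 and 5.53 in Alone, so that its Gpc4 arrays cleared the nearer TSP1 array by 0.01 and the Alone arrays lay on either side. Top2a exceeded TSP1 by 0.21 ± 0.10 with Gpc4 (SE, adjusted p = 1). The 6 genes that did not separate were Mki67, Aurka and Aurkb, the Aurora kinases, Cdc20, an activator of the anaphase-promoting complex, Kif11, a kinesin that pushes spindle poles apart, and Cenpf, a kinetochore protein. Cdc20 read 5.89 and 5.75 with Gpc4, 5.50 and 5.75 with TSP1, and 5.69 and 5.89 in Alone. Cenpf was the single gene of the 13 with a positive difference for TSP1 against Alone, 0.06.

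Read by brightness, the pattern was widest among dim probe sets. Of the 18 members below the array median on all 6 arrays, 8 had both Gpc4 arrays above both TSP1 arrays (44.4%, against 18.2% of the 14769 probe sets that dim), with a median difference of 0.15 against 0.02. Of the 15 members above it on all 6 arrays, 4 did (26.7%, against 10.9% of the 14841 probe sets that bright), with a median of 0.06 against −0.02. No member of either kind was separated the other way.

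**Figure D4:**
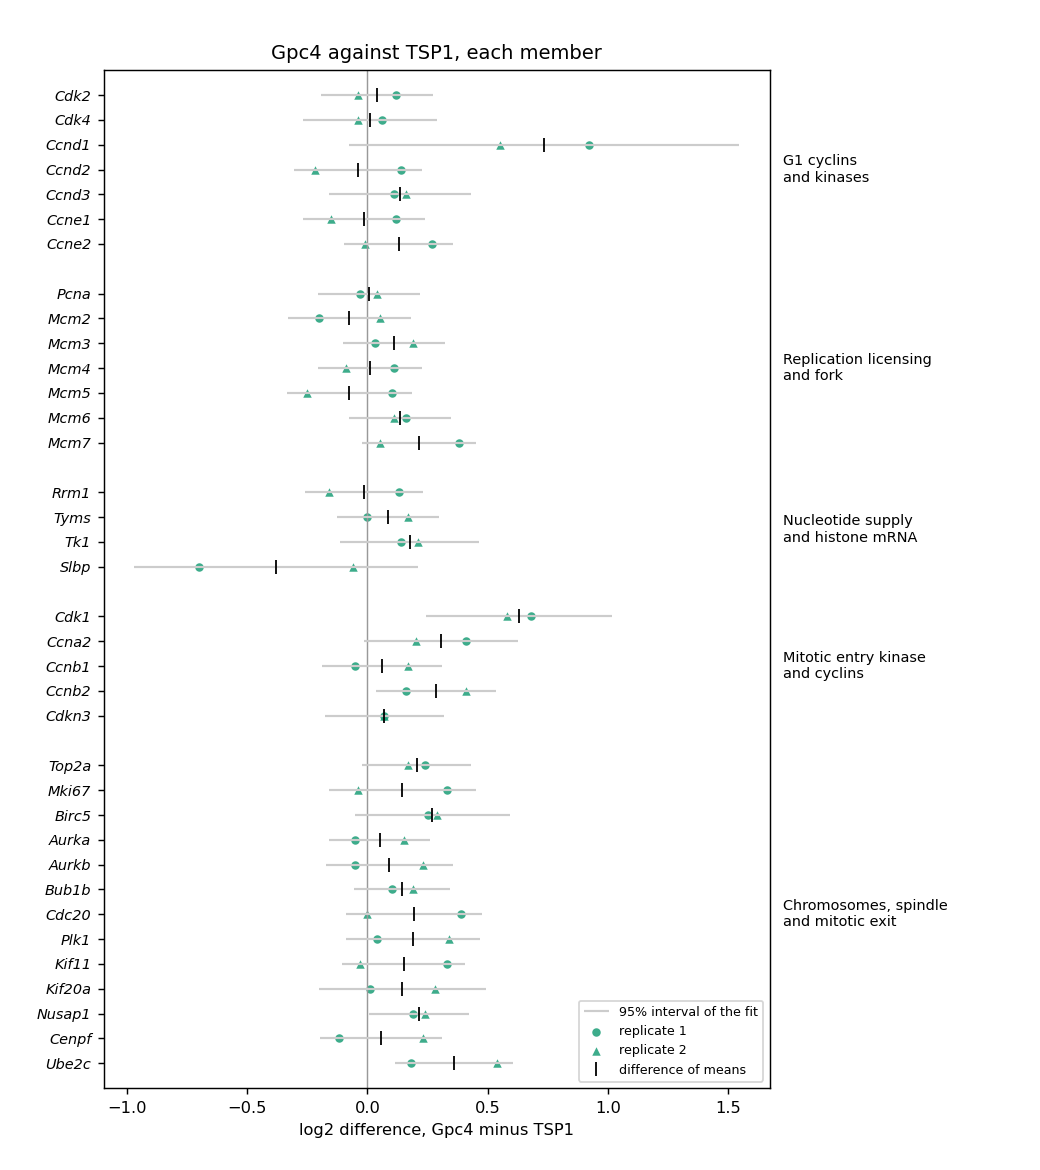
Log2 difference, Gpc4 minus TSP1 (x axis), of each measured gene, with circles and triangles for replicates 1 and 2, a black tick for the difference of means and a grey line for its 95% interval from limma. Of the 36 ticks 30 lie right of 0, among them all 13 of the lowest role, with Cdk1 at 0.63 and Slbp at −0.38.

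Other genes of these pathways were read from 6 lists: cyclin-dependent kinase inhibitors and pocket proteins, E2F and DREAM factors, further replication genes, further mitosis genes, thymidylate and nucleotide metabolism, and the p53 response. Of their 102 measured genes, 0 passed the test in any treatment comparison, with or without the block. The list medians lay between −0.05 and 0.06 for Gpc4 against Alone and between −0.10 and 0.09 for TSP1 against Alone. For the 26 further mitosis genes, such as Bub1, Ttk and Melk, the median of Gpc4 against TSP1 was 0.04, against 0.15 for the 13 members of chromosomes, spindle and mitotic exit, and 15 of the 26 lay below the array median on all 6 arrays. For the 30 further replication genes it was 0.03. Cdkn1b, which encodes the inhibitor p27 that holds cells out of the cycle, read between 10.81 and 11.02 on all 6 arrays, and Cdkn1a, which encodes p21, between 8.97 and 9.26.

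In the limma fit with group and replicate number, the replicate number moved 1 member, Ccnd1, past the test. That same fit moved 1 member, Cdk1, for Gpc4 against TSP1 (adjusted p = 0.047). Without the block no treatment moved any member. Ccnd1 was higher in replicate 2 than in replicate 1 in all 3 groups, by 0.75 ± 0.09 on average (SE, adjusted p = 0.011), 1.68-fold, where 0.561% of all probe sets were called. Without any 1 of the 6 arrays the difference of Ccnd1 stayed between 0.65 and 0.84. Such fits leave 1 array in a group and cannot decide a call. The further probe sets of Ccnd1 gave 1.03 (adjusted p = 0.0018) and 0.72 (adjusted p = 0.042). Replicate 2 was higher in all 3 groups for 7 members (19.4%, against 13.9% of all probe sets): Cdk1, Cdk4, Ccna2, Ccnb1, Ccnd1, Ccnd3 and Cdkn3. For Cdk1 it was higher by 0.30 with Gpc4, 0.40 with TSP1 and 0.26 in Alone (adjusted p = 0.17). It was lower in all 3 for Cdk2, Tk1 and Aurkb, and mixed for the other 26. Among the 102 pathway genes the replicate number moved Cdkn2a, the locus of the inhibitors p16 and p19ARF, which read 7.94, 7.96 and 7.65 in replicate 2 of Gpc4, TSP1 and Alone and 6.77, 6.88 and 6.88 in replicate 1 (adjusted p = 0.0042).

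Fibroblast and meningeal markers moved with the replicate number and, in part, with TSP1. In replicate 2 they were higher by a median of 0.74, and 4 of the 12 passed the test: Dcn, Lum, Postn and Inmt. With TSP1 the median of the 12 was −0.83, and with Gpc4 −0.09. Dcn, the small proteoglycan decorin, read 6.41 and 7.48 with Gpc4, 4.48 and 5.88 with TSP1, and 5.59 and 7.75 in Alone. Inmt, a methyltransferase, read 7.34 and 8.36 with Gpc4, 5.07 and 5.52 with TSP1, and 7.44 and 8.28 in Alone. Both were lower with TSP1 in each replicate, while over the 12 markers the difference of TSP1 from Alone ran from −2.565 to 0.99.

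With the block, Inmt fell by 2.56 with TSP1 against Alone (adjusted p = 0.0029), and Dcn, Lum and Inmt were higher with Gpc4 than with TSP1, by 1.77, 1.95 and 2.56 (adjusted p = 0.026, 0.0086 and 0.00043). Postn, the matrix protein periostin, went the other way, at 7.62 and 8.24 with Gpc4, 8.43 and 9.16 with TSP1, and 7.42 and 8.19 in Alone (TSP1 against Alone 0.99, adjusted p = 0.040 with the block). Without the block 0 of the 12 were called in any treatment comparison. Summed on the linear scale, the 12 markers came to 1514 and 2298 with Gpc4, 1483 and 2480 with TSP1, and 1492 and 2751 in Alone. This total separated the replicate numbers and not the treatments. It is weighted to the brightest markers, so the rise of Postn with TSP1 offsets falls of dimmer ones. The median log2 difference of the same 12 with TSP1 was −0.83. Of the 12, Pdgfrb alone lay below the array median on all 6 arrays. Microglial C1qa and C1qb went the opposite way to the fibroblast markers between replicates, lower in replicate 2 by 0.99 and 1.09 (adjusted p = 0.022 and 0.0066). The part of these cells in the values of Cdk1 and Ccnd1 was not tested.

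**Figure D5:**
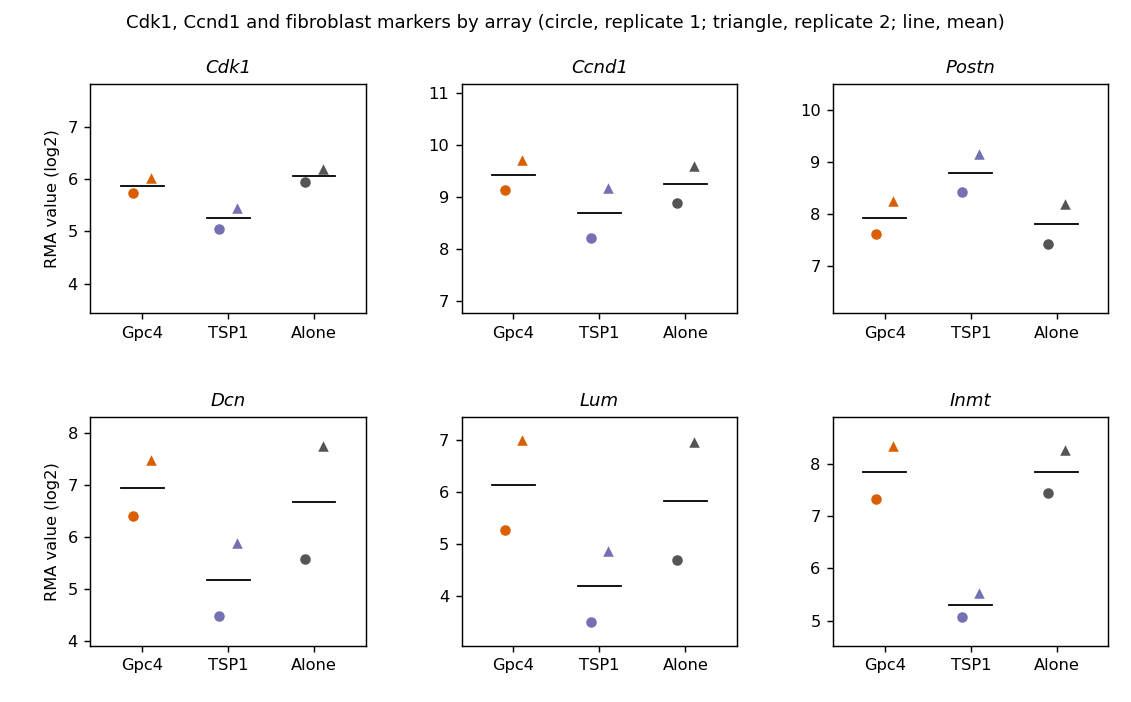
RMA values (log2, y axis, each panel spanning the same range) of Cdk1, Ccnd1 and the fibroblast markers Postn, Dcn, Lum and Inmt on the arrays of Gpc4, TSP1 and Alone, with circles for replicate 1, triangles for replicate 2 and a line for the mean. The 4 markers are those of 12 that passed the test between replicate numbers, as Ccnd1 did, so the order of their replicates follows from the choice. Replicate 2 is the higher of each pair in all 6 panels, and the TSP1 mean is the lowest in every panel but that of Postn.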

How the data were processed

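Total RNA of RGC cultures was hybridised to 6 Affymetrix Rat Genome 230 2.0 arrays, 2 each for Gpc4, TSP1 and Alone. Per the labels, the authors used Affymetrix Expression Console, of unstated version, to make the deposited log2 values by RMA, 1 for each of 31042 probe sets with 2 decimals. RMA normalizes the arrays to each other, so a change shared by most genes is removed. No counts or detection calls were used, and precision is limited by the number of arrays.

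Groups were compared by limma 3.58.1 (R 4.3.3; a linear model with 1 mean per group and moderated variances, two-sided, 3 residual degrees of freedom), with Benjamini-Hochberg adjustment over all 31042 probe sets. Errors are standard errors of that fit. Replicate numbers were compared in a fit with group and replicate number. Same-numbered arrays deviated together (correlations of 0.29 to 0.374 between groups over all probe sets), and the fit with the block is given where it changed a call. The fits were tested on simulated data. The 52 probe sets of the members kept their symbols in the RefSeq gene table of GRCr8, and the promoters came from its promoter table. Named in full were members past the threshold in any fit, the 3 of smallest p per comparison and direction with a log2 difference of at least 0.58 and 1 sign in both replicates, and 11 genes fixed by name, of which Rrm2 has no value. Further members are named beside a count, after their values were seen. The members, roles and gene lists were chosen with earlier results of these data known.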

Additional observations from a re-analysis of the deposited data

How the results depend on the processing

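Fitting the replicate number as a block raised the members called for Gpc4 against TSP1 to 1, Cdk1 (log2 difference 0.63, adjusted p = 0.047), and left the others at 0; the calls over all probe sets became 64 for Gpc4 against Alone (26 without), 4 for TSP1 against Alone (0 without) and 80 for Gpc4 against TSP1 (19 without). The block changed no other call on a chosen probe set of a member; on a further probe set of Ccnd1 it gave a call for Gpc4 against TSP1 (adjusted p = 0.033).

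The t-test without adjustment, which the paper does not name for the arrays, passed 1 member for Gpc4 against Alone and 1 for Gpc4 against TSP1. Over all probe sets it passed 1730 with Gpc4 and 1300 with TSP1 against Alone, and 1458 between Gpc4 and TSP1. After adjustment it passed 0 members and 26, 20 and 25 probe sets in the same order, all of them with equal rounded values within each group. Trended variance gave 49, 0 and 39 probe sets, and a limit of 0.10 gave 46, 0 and 37. Fits on only the arrays of the groups compared gave 13 for Gpc4 against Alone, and asking for a mean of 6 or more on the log2 scale gave 31 for Gpc4 against TSP1. For the replicate numbers trended variance gave 264 and the limit of 0.10 gave 284, against 174. Without 1 array the calls over all probe sets fell to between 2 and 13 for Gpc4 against Alone, 2 and 13 for Gpc4 against TSP1 and 0 for the replicate numbers, and were 0 or 1 for TSP1 against Alone.

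The median of the members for Gpc4 against Alone, 0.0325, became 0.0275 with arrays centred on their medians and with quantile normalization, 0.0125 with the probe sets of a gene averaged, and −0.0025 with that minimum mean of 6; the last setting also gave −0.0525 for TSP1 against Alone and 0.035 for Gpc4 against TSP1, with fewer members, and left Cdk1 out. Without 1 array the medians ranged from −0.0025 to 0.0625 for Gpc4 against Alone and from −0.08 to −0.0575 for TSP1 against Alone. Without any 1 array the log2 difference of Ccnd1 between replicate numbers stayed between 0.65 and 0.84. Such fits leave 1 array in a group and cannot decide a call. Of 326 recomputed treatment differences of the members named in full, 18 changed sign, all of them under the threshold and 0.18 or less in size. Differences of dim members are limited by signal near background. The cause of these shifts was not tested.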

Other observations

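Among markers of other cells, Kdr, an endothelial receptor for VEGF, read 7.86 and 8.0 with Gpc4, 6.77 and 6.83 with TSP1, and 6.84 and 7.36 in Alone, and was past the threshold for Gpc4 against TSP1 (log2 difference 1.13) with the replicate block only. Gad1, which makes GABA and marks inhibitory neurons, read 7.69, 7.89 and 7.85 in replicate 2 of Gpc4, TSP1 and Alone, against 7.21, 7.24 and 7.14 in replicate 1 (adjusted p = 0.016 in limma). Sox2, a factor of neural progenitors and glia, was also higher in replicate 2, by 0.64 (adjusted p = 0.047).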
